A study of Sus scrofa with 20 samples.

Results

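The immediate early genes FOS, FOSB, JUN, JUNB, EGR1 and ATF3 were followed across 20 RNA sequencing libraries of the epicardial adipose tissue of Ossabaw miniature pigs, that is, of the fat around the heart. They were chosen by name as early response genes, with earlier results of these data known. The first deposited table of each library, with 22861 gene rows, held 5 of the 6 genes, and the second, with 10157 rows, held all 6. FOS (ENSSSCG00000002383), JUN (ENSSSCG00000030839), JUNB (ENSSSCG00000013735) and ATF3 (ENSSSCG00000015595) were found by name in the first table and EGR1 (ENSSSCG00000014336) was found there as EGR-1. FOSB had no row of that name in the first table, so its values come from the second table throughout. For EGR1 the second table held between 113.3 and 116.6% of the reads of the first.

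Immediate early genes are transcribed within minutes of a stimulus, without the need for new protein synthesis, when kinases activate factors that already sit at their promoters. The FOS and JUN families pair into AP-1, a dimer that binds DNA and regulates later genes, EGR1 is a zinc finger factor with its own target sites, and ATF3 is a stress-responsive factor of the CREB family. Growth factors, hormones and cytokines induce these genes, and so do mechanical injury, loss of blood flow and the excision of a tissue, which is why their transcripts are often read together with the handling of a sample. The transcripts decay quickly once a stimulus ends.

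The 3 groups were WD+S (n = 8), given a Western diet of refined grain rich in cholesterol and saturated fat together with atorvastatin, HHD+S (n = 6), given a Heart Healthy diet of unrefined grain, vegetables and fruit rich in unsaturated fat together with atorvastatin, and HHD (n = 6), given the Heart Healthy diet and no drug. Atorvastatin inhibits cholesterol synthesis. Sample labels name the diet of WD+S atherogenic, and the series design has Western in its place. The fourth group of that design, Western diet alone, was not analysed here. Libraries carry different animal numbers in their titles. If some shared an animal, p-values would in part measure technical spread. The sources used here give no age, no sex or batch per library, and no time from death to freezing, so handling itself was not measured.

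Counts of unique exon reads summed to between 2749337 and 6543337 per library, and no member had fewer than 27 reads in any library. The names of the deposited tables carry a number, called pool here, and a preparation code; what either stands for is not stated. Pool 1 held 12 libraries, 4 of each group, and pool 2 held 8, of which 4 were WD+S, 2 HHD and 2 HHD+S. Code C1 marked 7 libraries, all of pool 1, and code C3 marked 4, all of pool 2. Code C2R marked 6 libraries, 3 of each pool, and code C4 marked 3, with 2 in pool 1 and 1 in pool 2. Reads of 4 Y-linked genes with hardly any of XIST (made from the inactive X in females) appeared in 2 libraries of pool 1 and 5 of pool 2, so pool and sex move together. HHD replicates 3 and 5 carried reads of both kinds, and results are given with and without them where they changed a call. The adipocyte markers were present in every library, with ADIPOQ between 4600 and 11170 CPM (counts scaled to equal library totals) and PLIN1 between 738.6 and 1787 CPM, and all 14 adipocyte markers had reads in every library.

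On the authors' RPKM scale, which divides by length and so allows genes to be compared, FOS had the highest median level of the 6 genes and ATF3 the lowest. The median RPKM was 314.3 for FOS, 189.2 for JUN, 186.6 for EGR1, 63.9 for JUNB, 46.12 for FOSB and 38.35 for ATF3. EGR1 exceeded JUNB in all 20 libraries, whereas the neighbours FOS and JUN kept that order in 14 libraries, JUN and EGR1 in 10, JUNB and FOSB in 15, and FOSB and ATF3 in 9. These latter neighbours therefore changed places from library to library. FOS was the gene with the 28th highest RPKM of 10149 in the library where it stood highest and the 2248th in the library where it stood lowest.

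The members varied more between libraries than most genes did. The ranges below run over all 3 groups. FOS, the partner of the JUN proteins in AP-1, ran from 55.0 CPM (scaled by the trimmed mean of M values, TMM) in HHD+S replicate 5 to 3425 CPM in HHD replicate 1, a 62.2-fold range. FOSB, a close relative of FOS, ran from 6.64 to 1570 CPM between the same libraries, a 236.5-fold range. EGR1 also had its extremes in these libraries, at 80.4 and 2301 CPM, a 28.6-fold range. The libraries at the ends of the range were thus shared by these 3 genes.

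The remaining members covered narrower ranges. JUNB, a JUN family protein, ran from 37.7 CPM in WD+S replicate 5 to 407.9 CPM in HHD replicate 3, a 10.8-fold range. ATF3 ran from 25.0 CPM in HHD replicate 6 to 304.4 CPM in WD+S replicate 4, a 12.2-fold range. JUN, the founding AP-1 subunit, kept the tightest range, from 380.2 CPM in HHD+S replicate 5 to 1363 CPM in WD+S replicate 1, or 3.59-fold. After removal of group means, the standard deviation of log2 CPM was 1.54 for FOS, 2.11 for FOSB, 1.21 for EGR1, 1.11 for JUNB, 0.84 for ATF3 and 0.53 for JUN. The median over the 11366 genes tested in the first table was 0.32. As a percentile of that spread FOS stood at 99.51, EGR1 at 99.0, JUNB at 98.7, ATF3 at 96.79 and JUN at 82.75, and FOSB stood at 99.75 among the 6682 genes tested in the second table. Genes with few reads also spread widely, but FOS, EGR1 and JUN were among the more abundant genes. These standard deviations still hold the difference between pools. With means of group and pool removed, they were 1.17 for FOS, 1.64 for FOSB and 0.82 for EGR1. They were then 0.88 for JUNB, 0.83 for ATF3 and 0.47 for JUN.

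**Figure D1:**
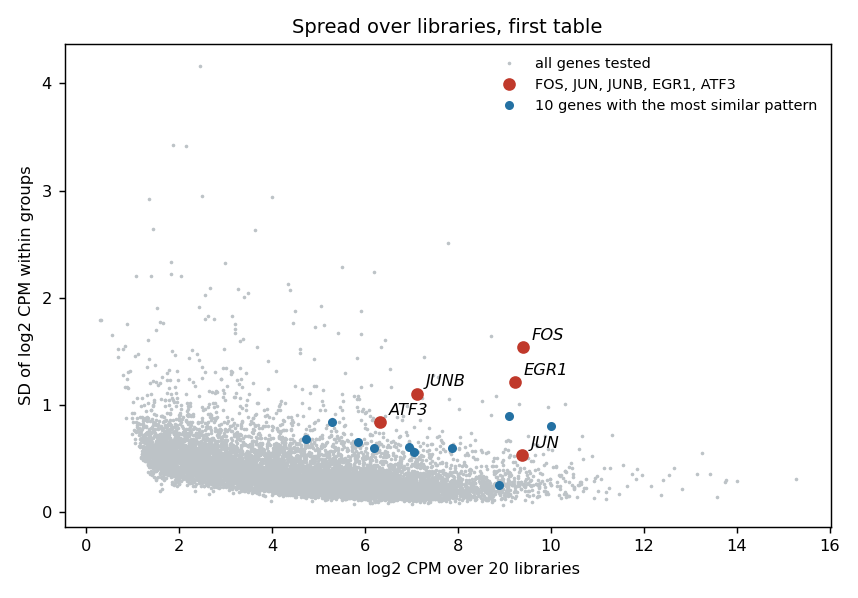
Standard deviation of log2 CPM within groups (vertical axis) against mean log2 CPM over 20 libraries (horizontal axis) for each gene tested in the first table, with the 5 immediate early genes of that table in red and the 10 genes of most similar pattern in blue. FOS, EGR1 and JUNB lie far above the grey cloud at their level of expression, with SDs of 1.54, 1.21 and 1.11 against a median of 0.32 over all genes.

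Neither diet nor atorvastatin separated the groups for any of the 6 genes. FOS stood at 382.9, 1035 and 3425 CPM (lowest, median and highest) in HHD, at 55.0, 409.0 and 2834 CPM in HHD+S and at 180.4, 768.5 and 3148 CPM in WD+S. EGR1 stood at 421.6, 618.6 and 2301 CPM in HHD, at 80.4, 477.1 and 1828 CPM in HHD+S and at 261.0, 549.0 and 1729 CPM in WD+S. Every group held 1 library with FOS of 2834 CPM or more together with libraries below 500 CPM, and the groups overlapped for every member in every comparison. Here, as in any bulk tissue, fewer cells of a type and less RNA per cell cannot be told apart.

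**Figure D2:**
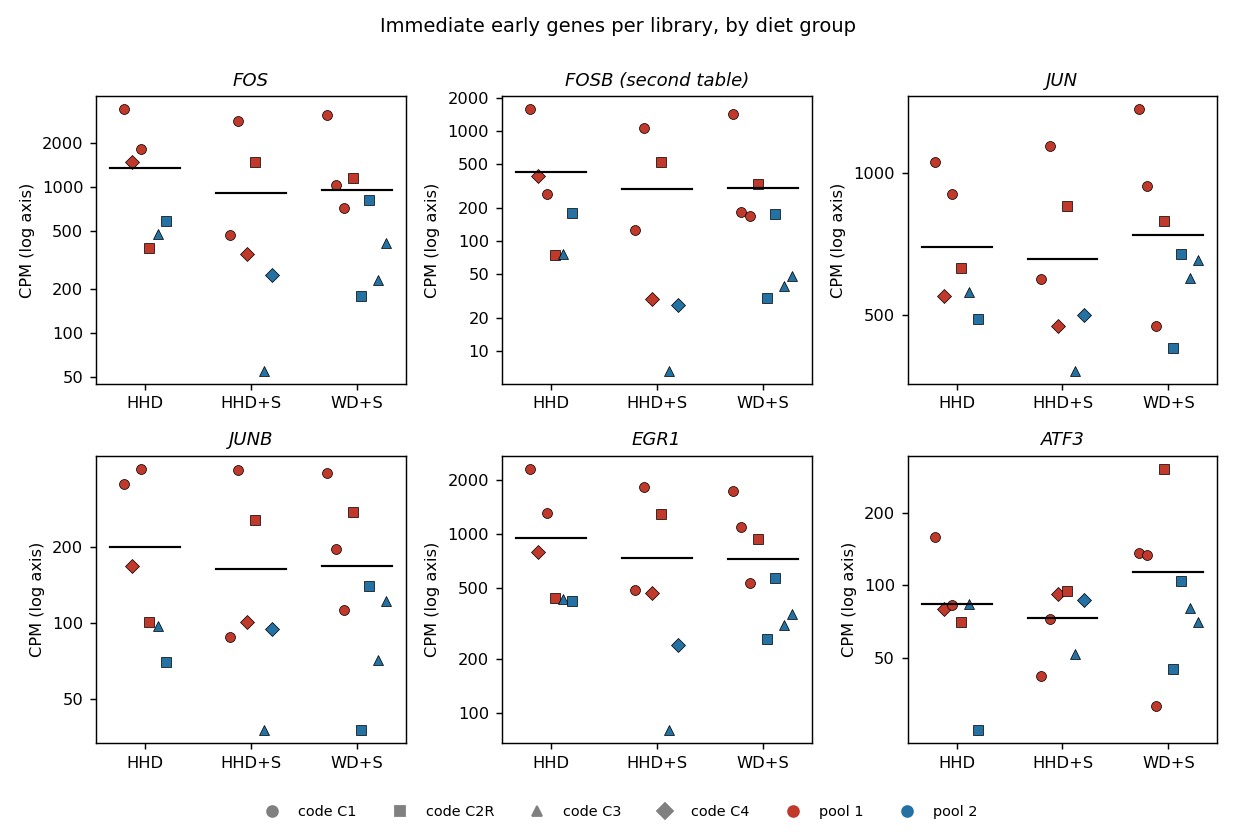
CPM of the 6 genes on log axes, 1 point per library, by diet group, with group means as black bars, pool 1 in red, pool 2 in blue and the preparation code as the symbol. The groups overlap in every panel, and for FOS, FOSB and EGR1 the highest point of each group is a pool 1 library with code C1.

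The comparison of HHD+S with HHD addresses atorvastatin on the Heart Healthy diet. JUNB averaged 199.8 ± 145.1 CPM in HHD and 163.4 ± 139.0 CPM in HHD+S (SD, n = 6 each), with levels of 70.4 to 407.9 and 37.7 to 404.0 CPM. The log2 fold change by edgeR's quasi-likelihood test was −0.59 for FOS (SE 0.76, adjusted p = 0.872), −0.52 for FOSB (SE 1.06, adjusted p = 0.917) and −0.38 for EGR1 (SE 0.60, adjusted p = 0.896). It was −0.29 for JUNB (SE 0.56), −0.19 for ATF3 (SE 0.43) and −0.09 for JUN (SE 0.28), with edgeR adjusted p-values of 0.916, 0.934 and 0.955. None of the 6 genes passed, where the share of all genes called was 0% (0 of 11366, and 8.46% at an unadjusted p under 0.05). No member had an unadjusted p under 0.05 in any of the 3 group comparisons, and DESeq2 and limma-voom called no member either. With standard errors of this size the tests do not show that the levels were equal, and the log2 fold change of FOS was −1.39 without HHD+S replicate 2 and −0.071 without HHD replicate 1.

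WD+S against HHD+S addresses the diet in the presence of atorvastatin. ATF3 averaged 113.3 ± 86.0 CPM in WD+S (SD, n = 8) and 73.4 ± 22.1 CPM in HHD+S (n = 6), with ranges of 31.6 to 304.4 and 42.1 to 94.6 CPM. The WD+S libraries held both the highest and the lowest of these values. The log2 fold change of ATF3 was 0.62 (SE 0.40, adjusted p = 0.705 by edgeR), and its unadjusted p of 0.135 was the smallest of any member in the first table in the 3 group comparisons. Without WD+S replicate 4, the highest library, it was 0.23. FOS (0.08, SE 0.71), FOSB (0.02, SE 0.99), JUN (0.17, SE 0.27), JUNB (0.04, SE 0.52) and EGR1 (−0.02, SE 0.56) differed by less than their standard errors on the log2 scale. None of the 6 genes passed, against 0% of all genes (8.69% at an unadjusted p under 0.05).

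WD+S against HHD changes diet and drug together. FOS was lower by 0.51 log2 units (SE 0.70, adjusted p = 0.831 by edgeR), a value that depended on HHD replicate 1: without it the log2 fold change was 0.01. JUN averaged 739.0 ± 300.7 CPM in WD+S (SD, n = 8) and 697.1 ± 227.9 CPM in HHD (n = 6), a log2 fold change of 0.08 (SE 0.27, adjusted p = 0.935 by edgeR). The log2 fold changes of FOSB (−0.50, SE 0.98), JUNB (−0.25, SE 0.52), EGR1 (−0.39, SE 0.56) and ATF3 (0.44, SE 0.40) did not pass either, where 0% of all genes were called (11.4% at an unadjusted p under 0.05). Without WD+S replicate 4 that of ATF3 was 0.043.

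Within the pools, FOS, FOSB and EGR1 differed more between HHD+S and either other group in pool 2, where the HHD and HHD+S groups hold 2 libraries each. For HHD+S against HHD the log2 fold change of FOS was −0.47 (SE 0.66) in pool 1 and −1.82 (SE 0.77) in pool 2, that of EGR1 −0.25 (SE 0.50) and −1.43 (SE 0.47), and that of FOSB −0.40 (SE 1.00) and −2.93 (SE 0.97). For WD+S against HHD+S the log2 fold change of EGR1 was 0.07 (SE 0.50) in pool 1 and 1.23 (SE 0.43) in pool 2, and that of FOS was 0.23 (SE 0.66) and 1.43 (SE 0.69). Both pool 2 values rest on HHD+S replicates 5 and 6, whose FOS levels were 55.0 and 250.0 CPM. The pool 2 libraries of HHD, replicates 5 and 6, stood at 479.7 and 589.2 CPM. HHD replicate 5 carried both XIST and Y-linked reads, and no fit within pool 2 was run without it. HHD+S replicates 5 and 6 also had the lowest mean log2 CPM of erythroid markers of all libraries, 1.57 and 3.31. Their mean log2 CPM of T and NK cell markers, 4.79 and 5.26, was the highest. What part either has in their low FOS was not tested. For WD+S against HHD, FOS stood at −0.24 (SE 0.66) in pool 1 and −0.39 (SE 0.63) in pool 2. No member passed within either pool; the edgeR adjusted p-values were 0.171 and above. The direct test of the difference, an interaction of group with pool, called no member. The edgeR adjusted p was 0.925 for FOS, 0.866 for EGR1 and 0.818 for FOSB. That test called 0.0088% of all first-table genes and 0.0599% of those of the second. With pool as a term over all libraries, HHD+S against HHD gave −0.86 for FOS (SE 0.57) and −1.08 for FOSB (SE 0.83). WD+S against HHD+S then gave 0.62 (SE 0.55) and 0.72 (SE 0.80). WD+S against HHD gave −0.25 (SE 0.52) and −0.36 (SE 0.75), and no member passed.

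Levels of most members lay lower in pool 2 than in pool 1. In pool 1, FOS stood at 349.3, 1318 and 3425 CPM (lowest, median and highest), and in pool 2 at 55.0, 330.9 and 815.5 CPM. FOSB stood at 29.8, 299.1 and 1570 CPM in pool 1 and at 6.64, 43.7 and 178.2 CPM in pool 2. EGR1 stood at 441.1, 1015 and 2301 CPM in pool 1 and at 80.4, 335.3 and 564.7 CPM in pool 2. All 8 libraries of pool 2 lay below the pool 1 median of FOS, FOSB, JUN, JUNB and EGR1, and 7 of them lay below the pool 1 median of ATF3. For EGR1, 7 of the 8 lay below the lowest pool 1 library, and for FOS 4 did, so the pools overlapped.

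EGR1 was the 1 member of the 5 in the first table that passed, lower in pool 2 with a log2 fold change of −1.81 (SE 0.36, adjusted p = 0.0483 by edgeR) in a fit with group as a term. Of all genes, 0.106% were called in that comparison (12 of 11366) and 0.0968% were called lower. FOS fell short of the threshold with a log2 fold change of −2.14 (SE 0.49, adjusted p = 0.0915 by edgeR), as did JUNB with −1.54 (SE 0.35, adjusted p = 0.0915 by edgeR). The values were −0.65 for JUN (SE 0.19, adjusted p = 0.185 by edgeR) and −0.70 for ATF3 (SE 0.32, adjusted p = 0.518 by edgeR). FOSB was lower by a log2 value of −3.04 (SE 0.74, adjusted p = 0.114 by edgeR) in the second table, where 0.0748% of all genes were called and none of the 6 members was. At an unadjusted p under 0.05 all 5 members of the first table were lower, where 4.66% of all genes were. Unscaled by error, the median log2 fold change of the 6 members was −1.67, beside 0.01 over all genes.

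The difference between pools was seen within each diet group. Mean FOS was 3.33-fold higher in pool 1 than in pool 2 among HHD libraries, 8.43-fold higher among HHD+S libraries and 3.70-fold higher among WD+S libraries. For EGR1 the corresponding ratios were 2.83, 6.37 and 2.87, and for JUN 1.49, 1.74 and 1.52. The ratio of ATF3 ranged from 1.08 in HHD+S to 2.02 in WD+S. These ratios are descriptions of 2 to 4 libraries a side.

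The EGR1 call stood close to the threshold. It was lost when any of 13 libraries was left out, namely WD+S replicates 1, 2, 4, 5, 7 and 8, HHD replicates 1, 3, 5 and 6 and HHD+S replicates 4, 5 and 6, with edgeR adjusted p-values between 0.0168 and 0.133 over all 20 omissions. Without WD+S replicate 6, the pool 2 library with the highest FOS level, or without HHD replicate 4, the pool 1 library with low FOS (382.9 CPM), FOS, JUNB and EGR1 passed together, and FOSB passed without the former. Without HHD replicates 3 and 5 the log2 fold change of EGR1 was −1.85 (SE 0.41, adjusted p = 0.0663 by edgeR), and in the second table it was −1.81 (SE 0.37, adjusted p = 0.0547 by edgeR).

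Sex and preparation code both run alongside the pool, and fits with either added gave a smaller difference between pools for most members. With the Y-linked level as a term the log2 fold change was −1.64 for FOS (SE 0.48), −1.98 for FOSB (SE 0.73), −1.45 for EGR1 (SE 0.36), −1.27 for JUNB (SE 0.36), −0.43 for JUN (SE 0.20) and −0.34 for ATF3 (SE 0.32). With the code as a term it was −1.25 for FOS (SE 0.66), −1.83 for FOSB (SE 0.94), −1.21 for EGR1 (SE 0.49), −1.09 for JUNB (SE 0.50), −0.39 for JUN (SE 0.26) and −1.04 for ATF3 (SE 0.48). All 6 stayed below 0 in both fits and none passed, with edgeR adjusted p-values of 0.239 and above. The fit with code compares the pools only within C2R and C4, since C1 and C3 each lie in 1 pool. Its values therefore rest on fewer libraries than those with group alone, and are not the same difference after adjustment.

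Code C2R is the only code with 3 libraries in each pool. Within it FOS stood at 382.9, 1155 and 1489 CPM in pool 1 (HHD replicate 4, WD+S replicate 4 and HHD+S replicate 4) and at 180.4, 589.2 and 815.5 CPM in pool 2 (WD+S replicate 5, HHD replicate 6 and WD+S replicate 6). JUNB stood at 100.9, 255.6 and 275.8 CPM in pool 1 and at 37.7, 70.4 and 140.2 CPM in pool 2. Both genes overlapped between the pools. Sex was not balanced in this set. WD+S replicate 5 and HHD replicate 6, both of pool 2, carried Y-linked reads with hardly any of XIST. The other C2R libraries carried XIST with hardly any Y-linked reads, so pool and sex are not separated here. In these 6 libraries alone, without a group term, the log2 fold changes were −0.95 for FOS (SE 0.57), −1.28 for FOSB (SE 0.77), −1.11 for EGR1 (SE 0.39), −1.35 for JUNB (SE 0.49), −0.54 for JUN (SE 0.19) and −1.43 for ATF3 (SE 0.63), and none passed (edgeR adjusted p from 0.207 to 0.411). These fits were chosen after the data were seen.

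**Figure D3:**
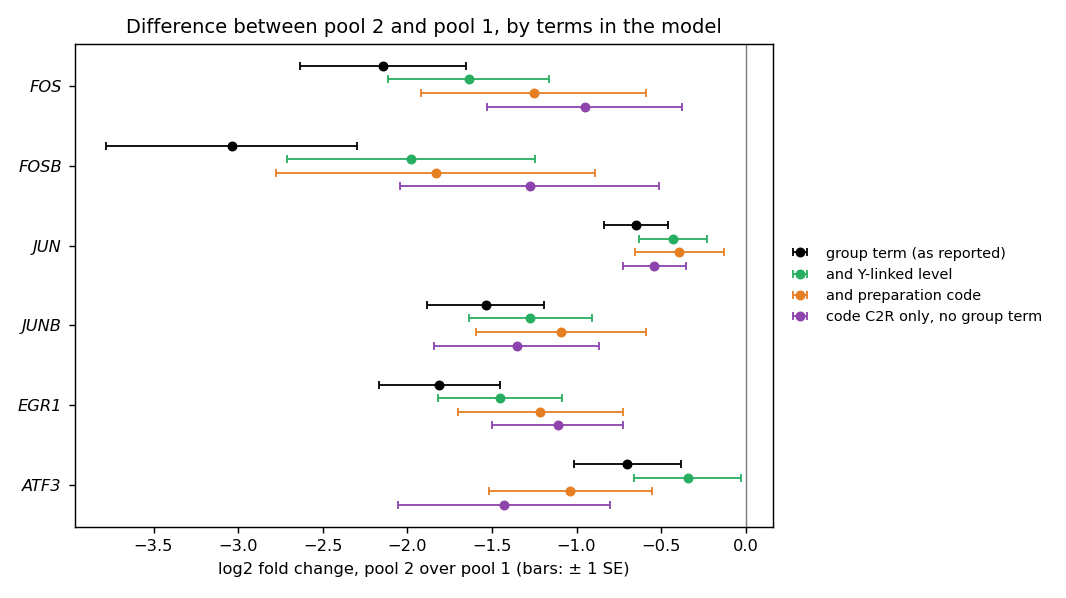
Log2 fold change of pool 2 over pool 1 (horizontal axis, bars ± 1 SE) for the 6 genes under 4 fits. Every point lies below 0. FOS stood at −2.14 with group alone, −1.25 with preparation code added and −0.95 within code C2R. The fits that use the code compare pools only within codes found in both pools. Within C2R, libraries with Y-linked reads and hardly any XIST lay only in pool 2.

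By preparation code, FOS, FOSB, JUN, JUNB and EGR1 had their highest median in C1, and ATF3 had medians of 82.6 CPM in C1, 82.7 in C2R, 75.5 in C3 and 87.2 in C4. FOS stood at 468.8, 1837 and 3425 CPM (lowest, median and highest) in the 7 C1 libraries and at 180.4, 702.3 and 1489 CPM in the 6 C2R libraries. In the 4 C3 libraries FOS stood at 411.9 and 230.2 CPM in WD+S replicates 8 and 7, at 479.7 CPM in HHD replicate 5 and at 55.0 CPM in HHD+S replicate 5. In the 3 C4 libraries it stood at 1480 CPM in HHD replicate 2 while HHD+S replicates 3 and 6 stood at 349.3 and 250.0 CPM. The 3 libraries with the most FOS, HHD replicate 1, HHD+S replicate 2 and WD+S replicate 1, all carried C1, yet C1 also held a library at 468.8 CPM, so the codes overlapped.

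A joint test over the 4 codes with group as a term called no member, where 0.044% of all genes were called (5 of 11366, and 0.0449% in the second table). The edgeR adjusted p was 0.18 for FOS, 0.231 for JUN, 0.273 for JUNB, 0.159 for EGR1 and 0.94 for ATF3, and 0.14 for FOSB in the second table. At an unadjusted p under 0.05, FOS (0.00402), JUN (0.01), JUNB (0.0141) and EGR1 (0.00272) were among 11.5% of all genes, as was FOSB (0.00364) among 12.6% of the second table. C1 lies wholly in pool 1 and C3 wholly in pool 2, so a direct difference between C1 and C3 cannot be told apart from the pool, while C2R and C4 span both pools. Within pool 1, FOS averaged 1924 ± 1221 CPM in C1 (SD, n = 7), 1009 ± 567.5 CPM in C2R (n = 3) and 914.7 ± 799.6 CPM in C4 (n = 2), and the codes overlapped.

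FOS, FOSB, JUN, JUNB and EGR1 moved together from library to library, and ATF3 followed them less closely. Pearson's r of log2 CPM over 20 libraries was 0.98 for FOS with EGR1 (Spearman's rho 0.95) and 0.97 for FOS with FOSB (rho 0.97), each with a permutation p of 1e-05, the smallest that the resamples can give. JUN with JUNB gave r = 0.91 (rho 0.85, permutation p = 1e-05) and FOS with JUN r = 0.85 (rho 0.80, permutation p = 1e-05). FOS with ATF3 gave r = 0.44 (rho 0.49, permutation p = 0.05, adjusted over 15 pairs 0.054, while that of rho was 0.029), and FOSB with ATF3 r = 0.38 (rho 0.44, permutation p = 0.097, adjusted 0.097). The other 13 of 15 pairs had an adjusted permutation p under 0.05, as did 14 pairs with group means removed.

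The correlations among FOS, FOSB, JUNB and EGR1 were positive within each pool, where they were not tested. FOS with EGR1 gave r = 0.96 within pool 1 and 0.97 within pool 2, and 0.96 over all libraries without the 2 farthest in FOS. FOS with FOSB gave 0.96 in each pool, and FOS with JUNB 0.93 and 0.80. FOSB with JUNB fell from 0.87 over all libraries to 0.64 in the 8 libraries of pool 2, and JUNB with EGR1 from 0.93 to 0.73. ATF3 came closest to JUNB and JUN: r was 0.61 with JUNB (rho 0.60, permutation p = 0.004, adjusted 0.0054) and 0.60 with JUN (rho 0.61, permutation p = 0.0043, adjusted 0.0054). ATF3 with EGR1 was 0.51 in pool 1 and 0.19 in pool 2. That the correlations of ATF3 differ from the others was not tested.

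**Figure D4:**
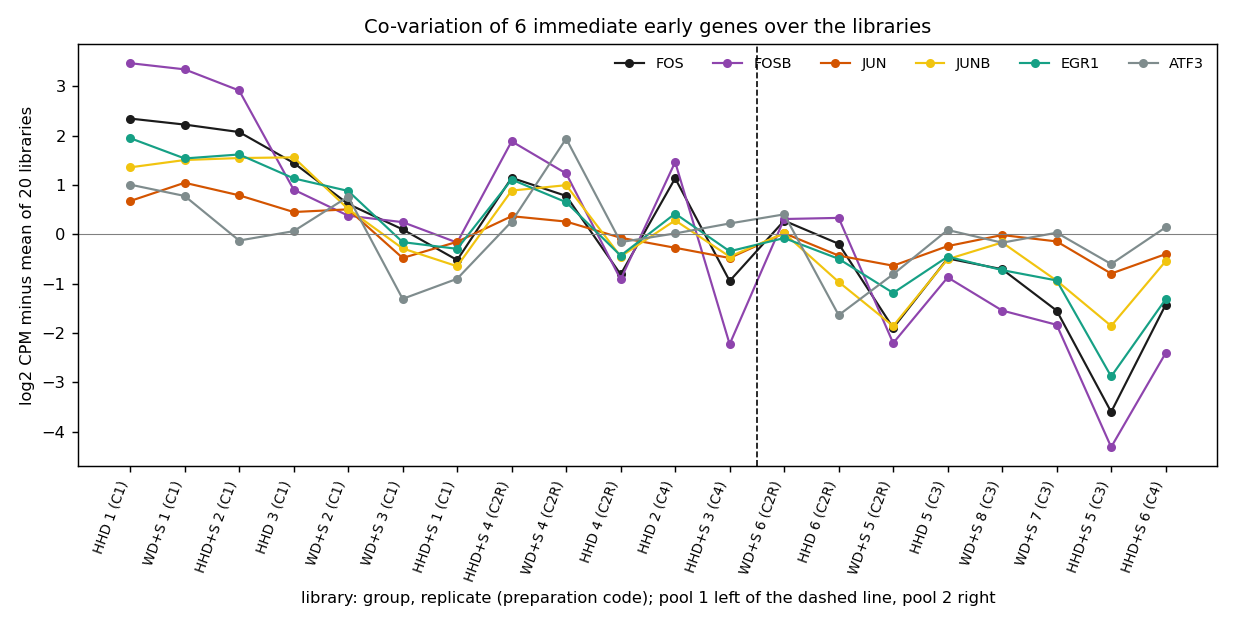
Log2 CPM of each of the 6 genes minus its mean over 20 libraries (vertical axis), with libraries ordered by pool, preparation code and FOS level (horizontal axis). FOSB swings widest, FOS and EGR1 trace it closely, JUN stays within a 3.59-fold range, and ATF3 departs from the others in several libraries, as in WD+S replicate 4 (304.4 CPM) and HHD replicate 6 (25.0 CPM).

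The members differed in how steeply they moved. For each log2 unit of FOS across libraries, FOSB moved by 1.32 log2 units, EGR1 by 0.756, JUNB by 0.647, JUN by 0.282 and ATF3 by 0.237 in a least-squares line over 20 libraries. FOSB therefore made up a changing share beside FOS. In the second table there were 45.9 FOSB reads per 100 FOS reads in WD+S replicate 1, 44.5 in HHD replicate 1 and 36.7 in HHD+S replicate 2, the 3 libraries with the highest FOS. There were 8.26 in HHD+S replicate 3, 10.8 in HHD+S replicate 6, 11.4 in WD+S replicate 8 and 11.7 in HHD+S replicate 5, all libraries with FOS below 500 CPM. The share did not follow FOS in every library: it was 14.4 in HHD replicate 3, the fourth highest in FOS (1837 CPM), 25.9 in HHD+S replicate 1 (468.8 CPM) and 28.9 in HHD replicate 6 (589.2 CPM).

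**Figure D5:**
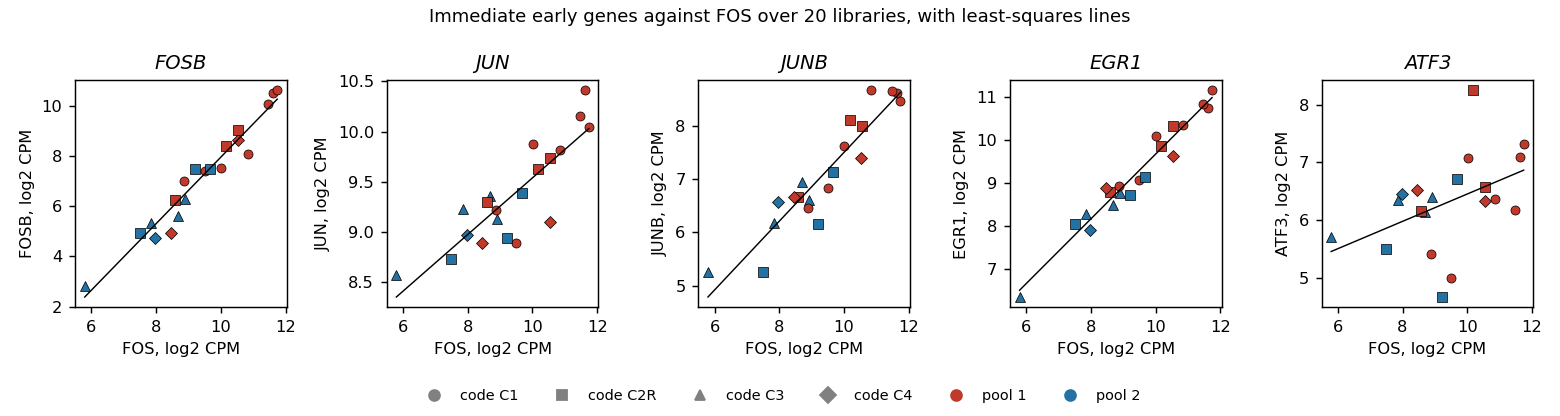
Log2 CPM of FOSB, JUN, JUNB, EGR1 and ATF3 (vertical axes, scaled separately) against log2 CPM of FOS (horizontal axes), 1 point per library, with least-squares lines; colours are pools and symbols preparation codes. EGR1 and FOSB lie close to their lines (r = 0.98 and 0.97) and ATF3 scatters widely (r = 0.44).

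Most of a wider list of early response genes also had negative fold changes in pool 2, with no gene past the threshold. Here and for the lists below, the second table was used only where the first had no row. The second-table rows of ZFP36 and CEBPD were thus left out, although their first-table rows held hardly any reads. Of 51 other immediate early genes listed, 45 were tested in this way. Of these, 42 had a negative fold change in pool 2 and none was called, with a median log2 fold change of −0.39 beside 0.01 over all genes. Of all genes, 47.3% had a negative fold change. In the 3 group comparisons none of these genes was called. Their mean log2 CPM ran from 6.11 to 7.09 in pool 1 and from 5.89 to 6.57 in pool 2. Over 20 libraries that mean correlated with JUNB (r = 0.93, rho 0.91, permutation p = 1e-05, adjusted over 102 pairs 0.00051), with FOS (r = 0.79, rho 0.76, permutation p = 3e-05, adjusted 0.00076) and with ATF3 (r = 0.76, rho 0.78, permutation p = 0.0001, adjusted 0.002). Without the 2 farthest libraries these values were 0.92, 0.73 and 0.72. Within pool 1 and pool 2 they were 0.93 and 0.87 for JUNB, 0.79 and 0.50 for FOS, and 0.70 and 0.83 for ATF3.

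Lists of other stress programmes had medians near that of all genes, although most heat shock genes were slightly higher in pool 2. Of 20 tested heat shock genes, which encode chaperones, 2 had a negative fold change in pool 2, where 47.3% of all genes did. Their median was 0.09 on the log2 scale. Of 20 hypoxia-responsive genes 7 were negative with a median of 0.10, of 15 genes of the integrated stress response, through which ATF4 induces ATF3, 8 were negative with a median of −0.02, and of 19 kinases and factors upstream of the early genes 12 were negative with a median of −0.02. No gene of these 4 lists was called in any comparison, and no member's correlation with their mean levels had an adjusted permutation p under 0.05. The upstream kinases and factors came to that threshold, with r = 0.60 for JUNB (rho 0.58, permutation p = 0.0049, adjusted 0.05) and 0.59 for FOS, 0.58 for JUN and 0.57 for FOSB (adjusted permutation p = 0.051 each). Within pool 1 and pool 2 these were 0.74 and 0.37 for JUNB, 0.79 and 0.32 for FOS, 0.75 and 0.03 for JUN, and 0.78 and 0.16 for FOSB. Without the 2 farthest libraries they were 0.55, 0.57, 0.43 and 0.54.

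The 10 genes outside the 6 whose group-centred profile over 20 libraries was most like the members' mean profile were BTG2 (r = 0.95), BHLHE40 (0.91), DUSP1 (0.91), PPP1R15A (0.90), IER3 (0.90), IER2 (0.88), KLF4 (0.87), ADAMTS1_3 (0.86), PLK2 (0.85) and ZFP36L1 (0.84). Of these, 8 stand in the list of other immediate early genes; BHLHE40 and ADAMTS1_3 do not. ADAMTS1_3 is 1 of 3 rows named for ADAMTS1, so its reads may be split. BTG2 ran from 167.8 to 1504 CPM with r = 0.91 in each pool, and DUSP1 from 290.3 to 2129 CPM with r = 0.86 in pool 1 and 0.91 in pool 2. The 36 other immediate early genes tested in the first table all had a positive r, with a median of 0.63, beside a median of −0.01 over 11361 genes. The libraries share their pool and depth in this description, and it carries no test.

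Markers of several cell types moved with the pool beside the members, and their part in the difference was not tested. All 11 fibroblast markers had a negative fold change in pool 2 and 3 of them passed, with a summed level of 16660 to 32830 CPM in pool 1 and 10620 to 26330 CPM in pool 2. Of 10 tested mesothelial markers, the lining cells of the pericardium, 9 had a negative fold change, with sums of 109.2 to 771.6 CPM and 72.6 to 526.7 CPM. All 3 tested erythroid genes had a negative fold change, with sums of 169.9 to 915.6 CPM in pool 1 and 15.9 to 629.5 CPM in pool 2. None of 13 neural markers had a negative fold change, with sums of 1230 to 5758 CPM and 1381 to 5408 CPM, and 1 of 7 T and NK cell markers did; beside the 3 fibroblast markers no marker of these lists passed. All listed markers of these types that have a row had reads in some library. Of 15 tested cardiomyocyte markers, 3 had a negative fold change in pool 2 and none was called. Their sums ran from 52.0 to 2730 CPM in pool 1 and from 181.4 to 6760 CPM in pool 2. None of the 15 had a negative fold change in WD+S against HHD+S or against HHD, and none was called there. The first-table row of the listed cardiomyocyte marker TTN had no reads in any library. Its second-table row was not examined, so absence of TTN is not shown.

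Among the cell types, the erythroid list passed an adjusted permutation p of 0.05 with members by Pearson's r and the fibroblast list by rank. The erythroid r was 0.69 with EGR1 (rho 0.55, permutation p = 0.00069, adjusted 0.01), 0.67 with FOS (rho 0.47, permutation p = 0.001, adjusted 0.013) and 0.61 with FOSB (rho 0.42, permutation p = 0.0031, adjusted 0.035). The rank correlations did not pass, with adjusted permutation p-values of 0.1, 0.2 and 0.3. Without the 2 farthest libraries r fell to 0.44, 0.43 and 0.38, and within pool 1 it was 0.05, 0.13 and 0.04, against 0.88, 0.80 and 0.77 within the 8 libraries of pool 2. The relation therefore rests on few libraries. The fibroblast list gave rho = 0.63 with FOS, 0.62 with FOSB and 0.62 with EGR1 (permutation p of 0.0039, 0.0042 and 0.0039, adjusted 0.048 each), and r = 0.57, 0.58 and 0.57 (permutation p of 0.0085, 0.007 and 0.0085, adjusted 0.051 each). Without the 2 farthest libraries the fibroblast r was 0.50, 0.50 and 0.51, within pool 1 it was 0.28, 0.24 and 0.19, and within pool 2 it was 0.23, 0.40 and 0.24. Library size did not vary with FOS (r = −0.07, rho −0.11, permutation p = 0.76, adjusted 0.94).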

How the data were processed

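Per the labels' protocols, RNA with a quality indicator above 7 was sequenced from libraries made with TruSeq RNA v2, which does not mark strand. The submitters' processing notes name bcl2fastq 2.17.1.14 and the build Sscrofa10.2; aligner and counting program: not given in the sources used here. For each library the authors deposited 2 tables: counts of unique exon reads, and, per the file headers, counts of unique gene reads with RPKM for another gene set. RPKM entered no test. Groups came from the diet label; replicates are numbered in order of deposit.

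Counts were tested with edgeR 4.0.16 (quasi-likelihood, TMM, minimum count 10, minimum total 15) in 1 fit over 20 libraries, with Benjamini-Hochberg adjustment over all genes tested (11366 and 6682 in the tables) and a threshold of 0.05; 8 rows of the second table with repeated names were left out. Standard errors are the fold change over the square root of F and are approximate. Log2 CPM used a prior count of 2. Correlations used two-sided permutation tests of 100000 resamples. The 6 genes and all gene lists were chosen with earlier results of these data known. The rule for named genes took the 6 genes, listed stress and early genes that passed edgeR, and the 10 genes of most similar profile. Alternatives included DESeq2 1.42.0, limma 3.58.1 voom and those in the closing section. The edgeR script was tested on simulated data. At the deposited depth the least precise value is FOSB in HHD+S replicate 5, at 27 reads.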

Additional observations from a re-analysis of the deposited data

Results flagged for a closer look

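Dixon's criterion was used to look for a library far from the others within the 3 diet groups. Of 18 sets of CPM values (6 genes in 3 groups), 4 were flagged. The criterion flags about 1 in 20 groups by chance only where values are normally distributed. CPM ranged widely within groups and was not put on the log2 scale here, so no excess over chance is read from the flags. FOS and FOSB moved together, so their flags are not independent. FOS in WD+S replicate 1 stood at 3148 CPM, with the remaining WD+S libraries at most 1155 CPM. FOSB stood at 1440 CPM in the same library and at 1570 CPM in HHD replicate 1. ATF3 stood at 304.4 CPM in WD+S replicate 4. The libraries high in FOSB carried code C1 and pool 1, and that high in ATF3 carried code C2R and pool 1.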

How the results depend on the processing

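No paired analysis was possible because the replicate numbers follow the order of deposit and pair no samples. No member was called in the 3 group comparisons, by preparation code or for the interaction under any alternative run. Below, each result that moved is given; the cause was not tested. Genes called for HHD+S against HHD were 11 with DESeq2 against 0 with edgeR; for WD+S against HHD+S 10 with DESeq2, 4 with limma-voom and 1 each with 2 groups in the fit and in pool 1; for WD+S against HHD 81 with DESeq2, 1 with 2 groups and 14 in pool 1. For pool, 12 genes became 5 in the second table, 27 without a filter, 19 within code C2R and 0 without a group term or with the Y-linked level or the code as a term, and the 1 member called became 0 in the second table, without HHD replicates 3 and 5, without a group term (EGR1 log2 fold change −1.72, edgeR adjusted p = 0.0751), within code C2R and with either term. For preparation code, 5 genes became 3 in the second table, 101 without a filter, 19 without HHD replicates 3 and 5, 0 without a group term and 1 for C4 against the other codes. The interaction went from 1 gene to 4 in the second table and 0 with limma-voom or without HHD replicates 3 and 5.

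Directions turned as follows on the log2 scale, all far from the threshold. JUN, HHD+S against HHD, was 0.020 with limma-voom, and ATF3 0.35 in pool 2. EGR1, WD+S against HHD+S, was 0.26 with limma-voom, 0.46 with pool, 0.047 with code and 0.27 with the Y-linked level as a term, 0.07 in pool 1 and 1.23 in pool 2. JUNB, WD+S against HHD, was 0.020 with limma-voom, 0.026 with pool as a term and 0.16 in pool 2.

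Leaving out each library in turn gave 0 to 1 genes for WD+S against HHD+S (1 without HHD+S replicate 2), 0 to 22 for WD+S against HHD (22 without WD+S replicate 1, 14 without HHD replicate 6), 7 to 42 for pool (7 without WD+S replicate 4, 42 without WD+S replicate 6, 26 without HHD replicate 4) with 0 to 3 members, 0 to 140 for code (140 without HHD+S replicate 3) and 0 to 193 for the interaction (193 without WD+S replicate 8). For HHD+S against HHD the log2 fold change ran from −0.32 to 0.071 for JUN, −0.80 to 0.049 for JUNB, −0.89 to 0.10 for EGR1, −0.38 to 0.10 for ATF3 and −1.59 to 0.57 for FOSB; FOS stayed negative (−1.39 to −0.07). For WD+S against HHD+S it ran from −0.47 to 0.88 for FOS, −0.0061 to 0.40 for JUN, −0.24 to 0.55 for JUNB, −0.32 to 0.50 for EGR1 and −1.09 to 1.09 for FOSB; ATF3 stayed positive (0.23 to 0.77). For WD+S against HHD it ran from −1.07 to 0.010 for FOS, −0.10 to 0.24 for JUN, −0.54 to 0.092 for JUNB, −0.71 to 0.088 for EGR1 and −1.61 to 0.63 for FOSB; ATF3 stayed positive (0.043 to 0.72). The pool difference of every member stayed negative in all 20 omissions (FOS −2.40 to −1.91, FOSB −3.43 to −2.53).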
